A study of Mus musculus with 14 samples.

Results

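The genes described here encode the glucose transporter GLUT3 (Slc2a3) and 9 enzymes of glycolysis: Hk2, Aldoa, Aldoc, Tpi1, Pgk1, Pgam1, Eno1, Pkm and Ldha. They were chosen by name, and a probe set counted only when it named a single gene of the list. Of the 10 genes 9 were measured, by 19 of the 18264 probe sets of the array, and they stand among 10254 genes tested. No probe set named Eno1 alone, so Eno1 was not analysed here.

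Each gene was followed in thymic lymphomas from 14 mice, each hybridised to 1 array. Every tumour arose in a p53R270H/R270H mouse of a mixed (C57BL/6-129/SvEvTac) strain, so the controls also have R270H in both p53 copies. They differed at Hif1a, with 5 Hif1a+/+ tumours, 5 Hif1a+/- tumours and 4 Hif1aKI/+ tumours, numbered within genotype as in the labels (1 to 5, and 1, 3, 4 and 5 for Hif1aKI/+). The mice received no treatment that the labels name, and tumours were taken when respiratory distress appeared. The labels do not say how the Hif1a alleles were altered, what the knock-in (KI) allele carries, or the age or sex of the mice, and they name no batch. The study sought genes whose expression differed with Hif1a genotype, as candidates behind altered onset and frequency of these tumours. Nothing in the labels says whether tumours came from separate litters, and p-values measure the spread between these tumours.

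Glycolysis splits glucose into pyruvate in the cytosol and yields ATP without oxygen. Glucose enters through transporters such as GLUT3 and is trapped by hexokinase. Aldolase and triosephosphate isomerase make and balance the 3-carbon sugars, phosphoglycerate kinase and pyruvate kinase make ATP, and lactate dehydrogenase turns pyruvate into lactate. HIF-1, a dimer of the oxygen-regulated HIF-1alpha subunit and ARNT, is a classical activator of many of these genes in hypoxia, and Myc activates several of them in proliferating lymphoid cells. HIF-1 binds the core letters ACGTG or GCGTG.

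Upstream sequences are shown for the genes with at least 2 matches to these cores in 1 window (Hk2, Pgk1, Pgam1 and Ldha), and for Tpi1, the gene in which neither core was found. Each is the 250 bases before a RefSeq gene start (GRCm38.p6), written on the strand of the gene, and capitals mark ACGTG or GCGTG on either strand, where the reverse strand reads CACGT or CACGC.
Hk2: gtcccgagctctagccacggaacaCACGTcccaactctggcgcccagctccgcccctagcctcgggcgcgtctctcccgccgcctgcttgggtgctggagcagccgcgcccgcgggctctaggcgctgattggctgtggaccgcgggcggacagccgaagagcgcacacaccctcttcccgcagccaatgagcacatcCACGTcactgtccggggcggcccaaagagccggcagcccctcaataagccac
Tpi1: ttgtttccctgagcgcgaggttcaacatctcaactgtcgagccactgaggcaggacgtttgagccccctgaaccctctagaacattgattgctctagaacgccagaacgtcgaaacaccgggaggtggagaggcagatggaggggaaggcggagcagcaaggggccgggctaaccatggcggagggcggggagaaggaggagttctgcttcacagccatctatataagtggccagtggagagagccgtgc
Pgk1: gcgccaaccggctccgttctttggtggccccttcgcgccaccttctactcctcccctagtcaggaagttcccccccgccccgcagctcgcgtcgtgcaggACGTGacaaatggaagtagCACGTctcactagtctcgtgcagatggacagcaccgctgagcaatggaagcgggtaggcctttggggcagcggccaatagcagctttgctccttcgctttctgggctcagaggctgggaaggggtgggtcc
Pgam1: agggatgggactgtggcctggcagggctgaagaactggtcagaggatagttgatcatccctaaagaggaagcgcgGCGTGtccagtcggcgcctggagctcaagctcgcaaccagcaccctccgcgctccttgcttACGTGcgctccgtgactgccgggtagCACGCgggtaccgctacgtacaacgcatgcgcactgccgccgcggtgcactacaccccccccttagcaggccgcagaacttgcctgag
Ldha: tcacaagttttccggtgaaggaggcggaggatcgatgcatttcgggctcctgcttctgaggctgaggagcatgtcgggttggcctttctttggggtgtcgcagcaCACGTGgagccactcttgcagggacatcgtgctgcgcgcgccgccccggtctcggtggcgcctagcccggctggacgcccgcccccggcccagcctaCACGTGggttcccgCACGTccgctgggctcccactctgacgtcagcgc
The measured genes lie at chr6:122727809-122802363 (Slc2a3), chr6:82725025-82774454 (Hk2), chr7:126795234-126800994 (Aldoa), chr11:78323073-78327781 (Aldoc), chr6:124810586-124814158 (Tpi1), chrX:106187100-106203699 (Pgk1), chr19:41911871-41918665 (Pgam1), chr9:59656576-59679372 (Pkm) and chr7:46842274-46855627 (Ldha) in the same build. The Hk2 window lies on the minus strand at chr6:82774455-82774704 and the Tpi1 window on the minus strand at chr6:124814159-124814408. The Pgk1 window is chrX:106186850-106187099, the Pgam1 window chr19:41911621-41911870 and the Ldha window chr7:46845554-46845803, all on the plus strand. The Ldha window precedes a start that lies inside the annotated gene, and a second Ldha window is not printed.

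Both Pgk1 matches are ACGTG, with first bases at -150 and -131 from the gene start and on opposite strands. Hk2 held ACGTG at -226 and -52, both on the reverse strand. Pgam1 held GCGTG at -175 and -88 and ACGTG at -114. The Ldha window held 5 matches, of which the pairs at -145 and -144 and at -48 and -47 are the 2 strands of the palindrome CACGTG, an E-box of the kind Myc binds, so these sites overlap. Windows were listed for 8 measured genes, 13 windows in all, and 10 of the 13 windows, of 7 genes, held a match. The windows of Aldoa overlap, and 2 of the 10 hold the same Aldoa site. Over the 32851 windows of that length in the RefSeq table, 38.6% held ACGTG or GCGTG, 16.7% held at least 2 matches, 16.6% held ACGTG and 6.02% held CACGTG. A match describes these letters and is no evidence of binding.

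The deposited values were log2 probe set summaries, with array medians between 7.91 and 8.03. Values below 4.41 formed a separate low mode without signal above background. All 7 measured T cell markers were far above that boundary in every tumour, with the CD3 chain gene Cd3e between 12.05 and 13.48 and Thy1 between 14.01 and 14.52. Hif1a itself was 12.60, 13.04, 12.45, 12.44 and 12.85 in Hif1a+/+ tumours 1 to 5 and 12.54, 12.24, 12.47, 12.82 and 12.68 in Hif1a+/- tumours. It was 12.25, 12.14, 11.94 and 11.75 in Hif1aKI/+ tumours 1, 3, 4 and 5. The first 2 genotypes overlapped, with a difference of -0.13 (SE 0.15, limma adjusted p = 0.857). All Hif1aKI/+ tumours lay below all Hif1a+/+ tumours, a separation that 0.878% of all genes showed, with a difference of -0.66 (SE 0.16, unadjusted p = 0.00121, limma adjusted p = 0.984). The 2 other Hif1a probe sets with signal gave -1.84 (unadjusted p = 0.00271) and -0.76 (unadjusted p = 0.0508), neither past the threshold in limma (adjusted p = 1.0 over all probe sets), and the last lay at background. Where these probes lie relative to the altered part of the gene was not analysed here, so Hif1a levels do not check the genotype labels.

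In Hif1a+/- tumours 8 of the 9 measured genes had a lower mean than in Hif1a+/+ tumours, where 53.8% of all genes tested were lower, and none of the 9 passed the threshold of the fit. The larger differences were those of Hk2, the hexokinase of proliferating and hypoxic cells (2.24-fold lower), and of Slc2a3 (1.65-fold lower), followed by Aldoa (1.42-fold lower), Tpi1 (1.33-fold lower) and Pkm (1.28-fold lower). Pgk1 and Ldha, both textbook HIF-1 targets, were 1.09-fold and 1.11-fold lower. The median difference of the 9 genes was -0.36 on the log2 scale, against -0.0038 over all genes tested. Without Hif1a+/- tumour 5 it was -0.22, with 8 of the 9 still lower. Cell cycle genes moved the same way, with 27 of 32 lower and a median of -0.28, and with 21 of 32 lower and a median of -0.12 without that tumour. Over all genes tested 54.4% were lower without that tumour, with a median of -0.0042. By limma with Benjamini-Hochberg adjustment over all genes, adjusted p lay between 0.566 for Pkm and 0.993 for Aldoc. Of the 9 genes 1, Pkm, had an unadjusted limma p under 0.05, where 3.64% of all genes were lower at that threshold. Of all 10254 genes 2 (0.0195%) passed as lower in this comparison, and 0 passed as higher, with 441 (4.3%) higher at an unadjusted p under 0.05. For none of the 9 genes were the 2 genotypes free of overlap, against 0.741% of all genes with every Hif1a+/- tumour below every Hif1a+/+ tumour and 0.731% with every one above. Aldoc, at background in both, was the 1 gene of the 9 with a higher mean, where 46.2% of all genes were higher.

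**Figure D1:**
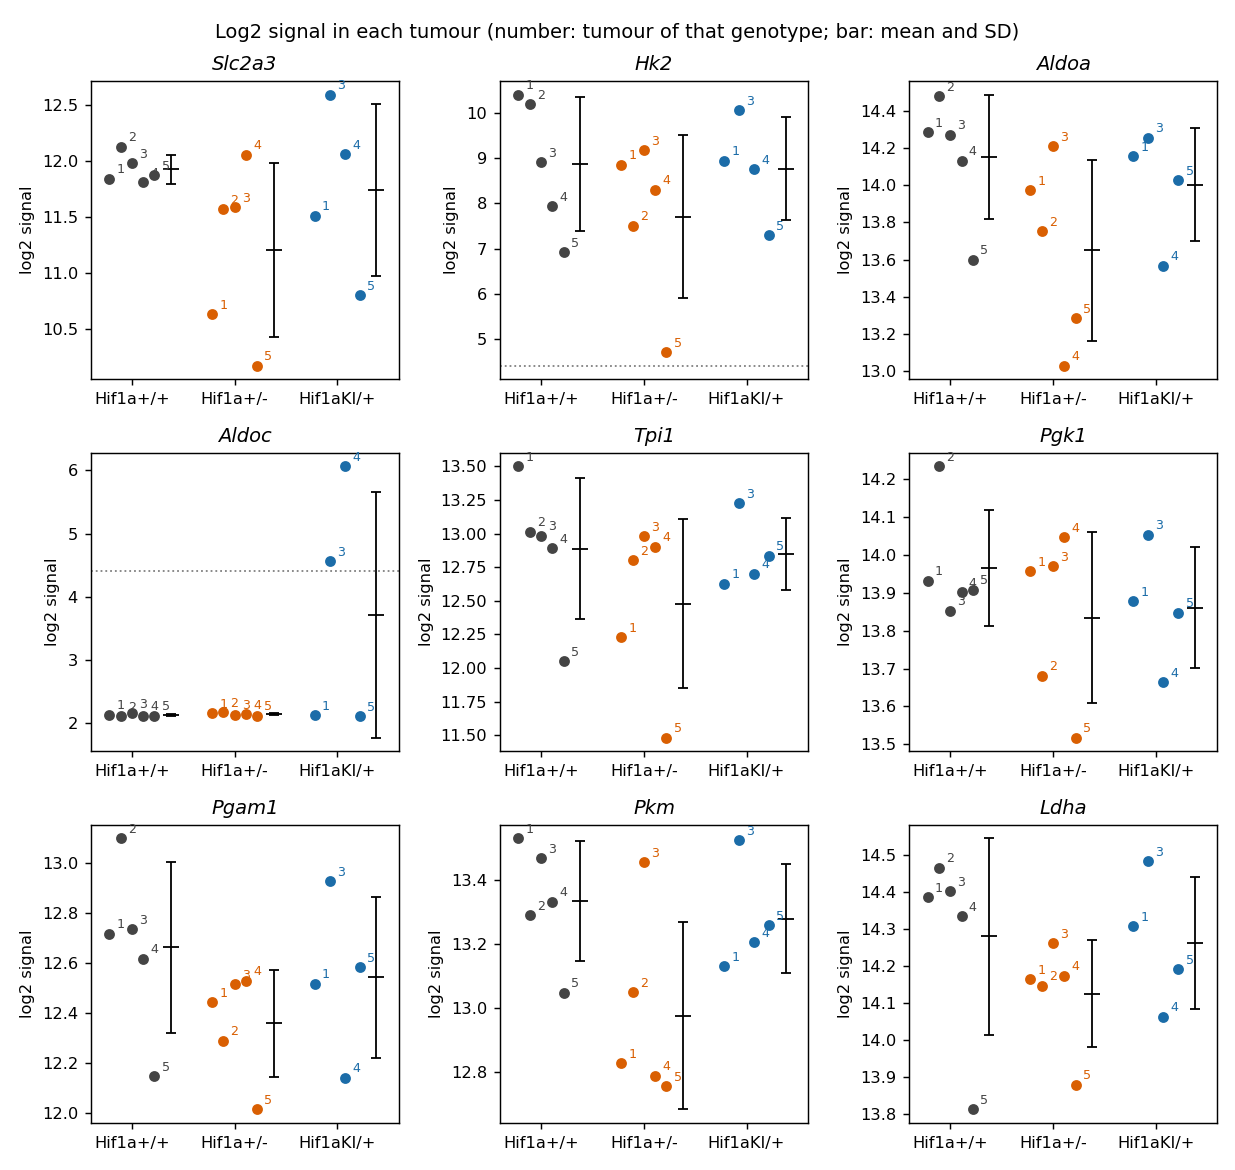
Log2 signal of the 9 measured genes (vertical axis, scaled per gene) in each tumour, grouped by Hif1a genotype. Points are tumours with their number and bars are the mean and SD of 5, 5 and 4 tumours; the dotted line in the Hk2 and Aldoc panels is the low-mode boundary of 4.41. The genotypes overlap for every gene, and Hif1a+/- tumour 5 is the lowest of 14 for 6 of them.

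Slc2a3 supplies glucose to lymphocytes and neurons through a high-affinity carrier. In Hif1a+/+ tumours 1 to 5 its signal was 11.84, 12.13, 11.98, 11.81 and 11.88. In Hif1a+/- tumours 1 to 5 it was 10.63, 11.57, 11.59, 12.06 and 10.17. In Hif1aKI/+ tumours 1, 3, 4 and 5 it was 11.51, 12.60, 12.06 and 10.80. The Hif1a+/+ tumours lay close together, whereas tumours 1 and 5 of Hif1a+/- and tumour 5 of Hif1aKI/+ lay more than 1 log2 unit below their lowest value, and Hif1aKI/+ tumour 3 lay above all others. The SD was 0.13 in Hif1a+/+, 0.78 in Hif1a+/- and 0.77 in Hif1aKI/+ tumours. Hif1a+/- minus Hif1a+/+ was -0.72 (SE 0.38, limma adjusted p = 0.655), and leaving out 1 tumour gave -0.94 to -0.47, the latter without Hif1a+/- tumour 5. A second probe set gave -0.67, and the third lay at background in all tumours (mean 2.06).

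Hk2 adds the phosphate that keeps glucose in the cell. Its signal was 10.40, 10.19, 8.90, 7.94 and 6.92 in Hif1a+/+ tumours 1 to 5. It was 8.85, 7.50, 9.17, 8.29 and 4.71 in the Hif1a+/- tumours, and 8.94, 10.05, 8.75 and 7.29 in Hif1aKI/+ tumours 1, 3, 4 and 5. Hk2 varied more than any other of the 8 genes above background, over 5.69 log2 units, and Hif1a+/- tumour 5 lay near the low-mode boundary. The difference of -1.16 between Hif1a+/- and Hif1a+/+ (SE 0.93, limma adjusted p = 0.769) was smaller than the SD within either genotype, 1.79 and 1.48. It was -0.41 without Hif1a+/- tumour 5 and -1.65 without Hif1a+/+ tumour 5.

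Aldoa, the main aldolase outside liver and brain, was 14.29, 14.48, 14.27, 14.13 and 13.60 in Hif1a+/+ tumours 1 to 5. It was 13.97, 13.75, 14.21, 13.03 and 13.29 in Hif1a+/- tumours and 14.16, 14.26, 13.57 and 14.03 in Hif1aKI/+ tumours 1, 3, 4 and 5. Hif1a+/- tumours 4 and 5 lay below all 12 other tumours. The difference of Hif1a+/- from Hif1a+/+ was -0.50 (SE 0.24, limma adjusted p = 0.630), and -0.64 to -0.35 when 1 tumour was left out. The other 3 Aldoa probe sets gave -0.57, -0.58 and -0.68.

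Aldoc, the aldolase of brain, lay at background in 12 of the 14 tumours, between 2.11 and 2.18. It was 4.56 in Hif1aKI/+ tumour 3 and 6.06 in Hif1aKI/+ tumour 4, and 2.13 and 2.11 in tumours 1 and 5. Both tumours above the low-mode boundary of 4.41 had the knock-in allele, tumour 3 only just above it. The other 2 tumours of that genotype matched the controls. The difference of Hif1aKI/+ from Hif1a+/+ was 1.59 (SE 0.66, unadjusted p = 0.0333, limma adjusted p = 0.984) and is one against background, which leaves the size open to doubt. It was 0.81 without tumour 4 and 2.12 without tumour 5. The second Aldoc probe set stayed at background in all tumours (mean 2.07).

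Tpi1 interconverts the triose phosphates made by aldolase. It was 13.50, 13.01, 12.98, 12.89 and 12.05 in Hif1a+/+ tumours 1 to 5, 12.23, 12.80, 12.98, 12.90 and 11.48 in Hif1a+/- tumours, and 12.63, 13.22, 12.70 and 12.84 in Hif1aKI/+ tumours 1, 3, 4 and 5. Tumour 5 was the lowest in both Hif1a+/+ and Hif1a+/-, and the Hif1aKI/+ tumours spread least. Hif1a+/- minus Hif1a+/+ was -0.41 (SE 0.31, limma adjusted p = 0.760), and -0.16 without Hif1a+/- tumour 5 and -0.62 without Hif1a+/+ tumour 5. The other 2 probe sets gave -0.48 and -0.46.

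Pgk1, an X-linked gene, makes the first ATP of the pathway. It was 13.93, 14.23, 13.85, 13.90 and 13.91 in Hif1a+/+ tumours 1 to 5, 13.96, 13.68, 13.97, 14.05 and 13.52 in Hif1a+/- tumours, and 13.88, 14.05, 13.66 and 13.85 in Hif1aKI/+ tumours 1, 3, 4 and 5. All 14 values lay within 0.72 log2 units, and 3 of the 5 Hif1a+/- tumours lay above the Hif1a+/+ median of 13.91. The difference of -0.13 (SE 0.11, limma adjusted p = 0.790) had a 95% interval of -0.38 to 0.12, and it was -0.05 without Hif1a+/- tumour 5. The 2 other probe sets gave larger differences of -0.36 and -0.43, with an unadjusted limma p of 0.0378 and 0.0739 and a limma adjusted p over all probe sets of 0.635 and 0.689.

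Pgam1, which moves the phosphate group of phosphoglycerate, was 12.72, 13.10, 12.73, 12.62 and 12.15 in Hif1a+/+ tumours 1 to 5. It was 12.44, 12.29, 12.52, 12.53 and 12.02 in Hif1a+/- tumours and 12.52, 12.93, 12.14 and 12.58 in Hif1aKI/+ tumours 1, 3, 4 and 5. The Hif1a+/- tumours ran from 12.02 to 12.53, and only Hif1a+/+ tumour 5, at 12.15, lay within that range while the other 4 lay above it. The difference was -0.30 (SE 0.18, limma adjusted p = 0.707), and it was -0.43 without Hif1a+/+ tumour 5 and -0.195 without Hif1a+/+ tumour 2.

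Pkm encodes the muscle-type pyruvate kinase, of which proliferating cells make the M2 splice form. The splice forms were not analysed here. It was 13.53, 13.29, 13.47, 13.33 and 13.05 in Hif1a+/+ tumours 1 to 5, 12.83, 13.05, 13.46, 12.79 and 12.76 in Hif1a+/- tumours, and 13.13, 13.53, 13.21 and 13.26 in Hif1aKI/+ tumours 1, 3, 4 and 5. Hif1a+/- tumours 1, 4 and 5 lay below every other tumour, and Hif1a+/- tumour 3 lay among the high Hif1a+/+ tumours. Hif1a+/- minus Hif1a+/+ was -0.36 (SE 0.14, 95% interval -0.67 to -0.05, unadjusted p = 0.0262, limma adjusted p = 0.566). Leaving out any 1 tumour gave -0.48 to -0.30 with a limma adjusted p of 0.378 to 0.808. Of the variance of Pkm 39.1% lay between genotypes, the highest share of the 8 genes above background, whose median was 17.1% against 12.6% over all genes above the low-mode boundary. Pgk1 (11.3%), Ldha (13.2%), Hk2 (13.6%) and Tpi1 (14.5%) lay near that median.

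Ldha, which makes lactate, was 14.39, 14.47, 14.40, 14.33 and 13.81 in Hif1a+/+ tumours 1 to 5. It was 14.16, 14.15, 14.26, 14.17 and 13.88 in Hif1a+/- tumours and 14.31, 14.48, 14.06 and 14.19 in Hif1aKI/+ tumours 1, 3, 4 and 5. All Hif1a+/- tumours lay below Hif1a+/+ tumours 1 to 4, and Hif1a+/+ tumour 5 was the lowest of all 14. Hif1a+/- minus Hif1a+/+ was -0.16 (SE 0.13, limma adjusted p = 0.774), and it was -0.27 without Hif1a+/+ tumour 5 and -0.09 without Hif1a+/- tumour 5.

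Between Hif1aKI/+ and Hif1a+/+ tumours, which share the control tumours of the comparison above, the 8 genes above background had means within 0.19 log2 units. The differences were -0.19 for Slc2a3, -0.15 for Aldoa, -0.12 for Pgam1, -0.11 for Hk2, -0.10 for Pgk1, -0.05 for Pkm, -0.04 for Tpi1 and -0.02 for Ldha. Aldoc excepted, 8 of the 9 were lower, where 52.3% of all genes were lower and 47.7% higher. Their limma adjusted p ran from 0.992 to 1.0. The 95% interval was -0.31 to 0.28 for Ldha and -0.37 to 0.16 for Pgk1, whereas that of Hk2 ran from -2.27 to 2.05 and leaves large differences of either sign possible. Of all genes 0 passed as lower, with 1.63% lower at an unadjusted p under 0.05, and 0 passed as higher, with 2.72% higher at that p, Aldoc among the latter. For none of the 9 were the genotypes free of overlap, against 0.878% of all genes in either direction.

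Hif1a+/- tumours had lower means than Hif1aKI/+ tumours for all 9 genes, where 53.1% of all genes tested were lower and 46.9% higher, and limma called 0 of the 9. For none of them were the genotypes free of overlap, against 0.439% of all genes lower and 0.234% higher without overlap. The difference was -1.05 (SE 0.99) for Hk2, -0.54 (SE 0.40) for Slc2a3, -0.37 (SE 0.33) for Tpi1, -0.35 (SE 0.25) for Aldoa, -0.30 (SE 0.15) for Pkm and -0.03 (SE 0.12) for Pgk1. Without Hif1a+/- tumour 5 it was -0.30 for Hk2, -0.28 for Slc2a3, -0.12 for Tpi1, -0.26 for Aldoa and -0.25 for Pkm, and that of Pgk1 turned to 0.05. Over all genes limma called 0, with 1.65% lower and 1.41% higher at an unadjusted p under 0.05. Aldoc, at -1.57 (unadjusted p = 0.0350), was the 1 gene of the 9 among them, for the 2 knock-in tumours named above. In order of mean level, Hif1a+/+ was highest, Hif1aKI/+ next and Hif1a+/- lowest for all 8 genes above background, and no pair of neighbours in that order differed past the threshold. The order of Hif1a+/+ and Hif1aKI/+ turned for Slc2a3, Hk2, Tpi1, Pgam1 and Ldha in at least 1 fit without a single tumour. Without Hif1a+/- tumour 5 the order of the last 2 genotypes turned for Pgk1, at its probe set of highest mean. The other Pgk1 probe sets gave Hif1a+/- minus Hif1aKI/+ differences of -0.13 and -0.24 with all tumours. They were not refitted without that tumour. In the F test over the 3 genotypes limma called 0 of 10254 genes, with 5.43% at an unadjusted p under 0.05 and none of the 9 among them.

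**Figure D2:**
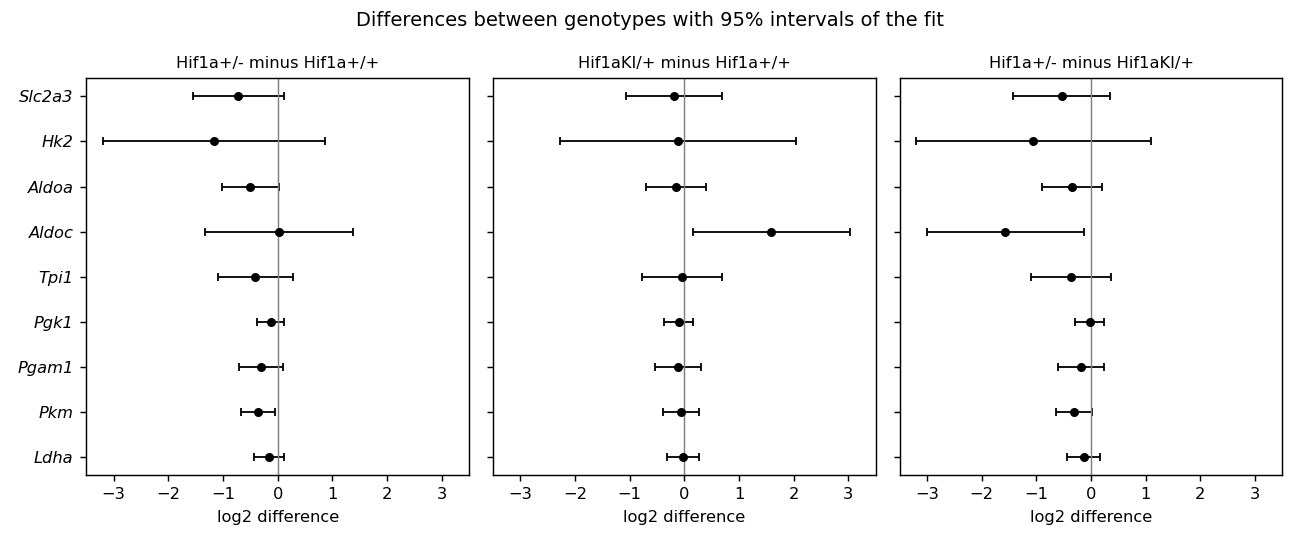
Log2 difference of each gene (horizontal axis) in the 3 comparisons of genotypes, with 95% intervals from the fit over all genes. Of the 27 intervals only those of Pkm in Hif1a+/- minus Hif1a+/+ and of Aldoc in both comparisons with Hif1aKI/+ leave out 0, and no gene passed after adjustment.

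Further genes of glycolysis, glucose uptake, lactate export, pyruvate entry and the pentose phosphate pathway were listed as a second group, of which 32 of 45 were measured, 25 of them with a mean above the low-mode boundary. In Hif1a+/- tumours 27 of the 32 had a lower mean than in Hif1a+/+, with a median of -0.13 against -0.0038 over all genes tested, and 0 passed in limma. Without Hif1a+/- tumour 5 it was 24 of 32, with a median of -0.10, where 54.4% of all genes tested were lower. An unadjusted p under 0.05 was reached by 1 of the 32, where 3.64% of all genes were lower and 4.3% higher at that threshold, so the share is no larger than over all genes. That gene was Dlat, the acetyltransferase of the pyruvate dehydrogenase complex, which feeds pyruvate to the mitochondria. Dlat had a mean of 10.54 (SD 0.17) over the Hif1a+/+ tumours and of 9.92 (SD 0.39) over the Hif1a+/- tumours, a difference of -0.61 (SE 0.19, limma adjusted p = 0.474). The genotypes did not overlap, as for 0.741% of all genes, but only just: the highest Hif1a+/- tumour and the lowest Hif1a+/+ tumour both rounded to 10.35. Next by unadjusted p were Gapdh (-0.07), Pgam2 (-1.20) and Pgm2 (-0.51). The Pgam2 mean lay below the low-mode boundary in both genotypes, at 3.27 in Hif1a+/+ and 2.07 in Hif1a+/-. Only Hif1a+/+ tumour 2, at 6.79, lay above it, so the size is uncertain. The transporter gene Slc2a1 (GLUT1) differed by -0.11 and Pdk1, which blocks pyruvate dehydrogenase and is a HIF-1 target, by -0.12. Both signs rest on Hif1a+/- tumour 5, since without it the differences were 0.07 and 0.13.

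In Hif1aKI/+ tumours 18 of the 32 were lower than in Hif1a+/+, near the 52.3% of all genes, with a median of -0.02, and 0 passed in limma. Pdha1, the catalytic subunit of pyruvate dehydrogenase, differed by -0.55 (SE 0.24, limma adjusted p = 0.984) and Pfkfb3, which makes the activator of phosphofructokinase, by -0.55 (SE 0.27). Eno2, the neuronal enolase, differed by 1.25 (SE 0.58), and by -1.42 (SE 0.58) between Hif1a+/- and Hif1aKI/+. Eno2 was 9.19, 8.79 and 8.15 in Hif1aKI/+ tumours 3, 4 and 5 and 6.04 in tumour 1, and it was at most 7.34 in the 10 other tumours. Tumours 3 and 4 were the ones with Aldoc above the low-mode boundary, tumour 3 only just. Between Hif1a+/- and Hif1aKI/+ tumours 19 of the 32 were lower, near the 53.1% of all genes, and 0 passed in limma. Pdk3 (-0.51) was the fourth gene by unadjusted p in the knock-in comparison, and Pfkfb3 (0.51), Pgm1 (-0.42) and Pdk4 (-0.73) followed Eno2 in the last one.

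**Figure D3:**
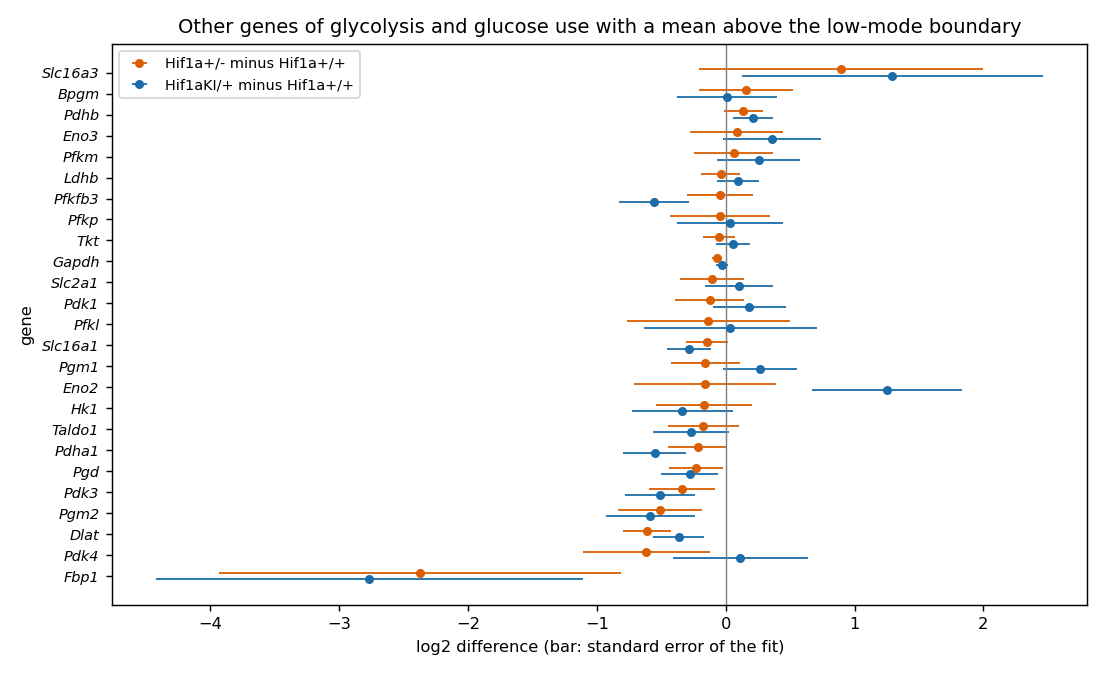
Log2 difference (horizontal axis, bars are standard errors of the fit) of the 25 other genes of glucose use with a mean above the low-mode boundary, for Hif1a+/- minus Hif1a+/+ and Hif1aKI/+ minus Hif1a+/+. Both comparisons share the 5 Hif1a+/+ tumours. Dlat lies at -0.61 in the first, and Eno2 at 1.25 in the second.

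The genes varied together across tumours within a genotype. Hif1a+/- tumour 5 was the lowest of 14 tumours for 6 of the 8 genes above background and among the lowest 3 for all 8. Hif1aKI/+ tumour 3 and Hif1a+/+ tumour 2 were each among the highest 3 for 7 of the 8. Hif1a+/+ tumour 5 was among the lowest 3 for 4 of the 8 and the lowest for Ldha, but for Slc2a3 and Pgk1 it lay near the Hif1a+/+ median. Hif1a+/- tumour 4 had the lowest Aldoa of all tumours and, at 14.05, the highest Pgk1 of its genotype.

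**Figure D4:**
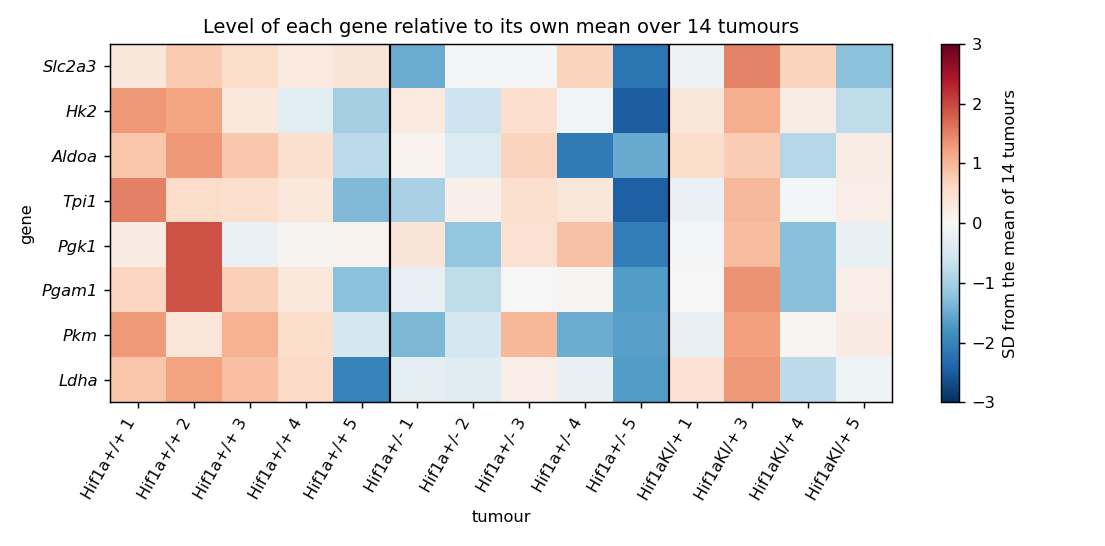
Level of the 8 genes above background (rows) in the 14 tumours (columns, grouped by genotype), as SD from each gene's own mean over the 14 tumours. Hif1a+/- tumour 5 is low in all 8 rows, and Hif1aKI/+ tumour 3 is among the highest 3 in 7.

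With values centred on the genotype means, all 28 pairs of the 8 genes had a positive Pearson correlation over the 14 tumours, with a median of 0.617. Over all pairs of the 7331 genes above the boundary the median was 0.00298, and 3.2% of pairs reached the median of the members. The 8 genes were measured on the same arrays, so the pairs share each tumour's RNA. The strongest pair was Pgam1 with Ldha (r = 0.92, permutation p = 1e-05, the smallest these permutations can give, adjusted p = 0.00028 over the 28 pairs). Its Spearman rho was 0.84 (permutation p = 0.00032, adjusted p = 0.00448). It was 0.86 without the 2 tumours farthest from the Pgam1 median and 0.90 without Hif1a+/- tumour 5. In all 18 of 28 pairs passed for r and 15 of them for Spearman rho as well. The share of all gene pairs past that threshold was not computed. Hk2 passed with all 7 partners, Ldha with 6, and Slc2a3 with only 2, Hk2 and Tpi1. The permutations shuffled all 14 centred values without allowing for the genotype means removed, so p is somewhat too small. Pairs close to the threshold are therefore uncertain. Among them are Hk2 with Pkm (permutation adjusted p = 0.0468) and both pairs of Slc2a3 (0.0397 with Hk2 and 0.0334 with Tpi1). Slc2a3 with Aldoa had the lowest value (r = 0.01, permutation p = 0.973, Spearman rho 0.09, permutation p = 0.763). Without Hif1a+/- tumour 5 the median of the 28 pairs was 0.543 with 27 positive, and 5.61% of all gene pairs reached that median. The 18 pairs then ran from 0.41 to 0.90. Without the 2 tumours farthest from the median of the first gene, the 18 ran from 0.20 to 0.86, with 6 of them under 0.5, so some of these relations rest on those tumours.

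Against other measures of the same tumours, 1 of 32 relations passed. Their permutation p-values have the limit given above for the pairs. Hif1a itself had a median r of 0.04 with the 8 genes, 4 of 8 positive, and none passed. It was -0.21 with 1 of 8 positive without the 2 tumours farthest from the Hif1a median, and 0.13 without Hif1a+/- tumour 5. Of the 20 hypoxia-induced genes used next, 16 had a mean above the low-mode boundary, and P4ha2 lay below it in every tumour. Their mean therefore includes values at background. The mean of 20 hypoxia-induced genes outside glycolysis had a median r of 0.493 with all 8 positive (0.592 without Hif1a+/- tumour 5 and 0.277 without the 2 farthest tumours), highest for Pgam1 (r = 0.65, permutation p = 0.013, adjusted p = 0.139; rho 0.53, permutation p = 0.0562; r = 0.29 without the 2 tumours of most distant hypoxia mean). The mean of 32 cell cycle genes had a median r of 0.478 with all 8 positive, highest for Tpi1 (r = 0.61, permutation p = 0.0232, adjusted p = 0.139; rho 0.34, permutation p = 0.24; r = 0.52 without the 2 tumours of most distant cell cycle mean). That list was lowest in Hif1a+/- tumour 5, at 10.58, against 11.33 to 11.70 in the 13 others, and without that tumour the median r was 0.244, with 7 of 8 positive. For Tpi1 the r without that tumour alone was 0.25. With the cell cycle mean as a covariate, Hif1a+/- minus Hif1a+/+ was -0.28 for Hk2, -0.57 for Slc2a3, -0.30 for Pkm and -0.10 for Tpi1.

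The relation that passed was that of Pgk1 with the mean of 6 macrophage markers (r = 0.81, permutation p = 0.0005, adjusted p = 0.016; Spearman rho 0.86, permutation p = 0.0002, adjusted p = 0.0064). It was 0.72 without the 2 tumours of the most distant macrophage mean and 0.85 without Hif1a+/- tumour 5. The Pgk1 probe set of highest mean was used, and the relation was not tested with the other Pgk1 probe sets. Pgam1 came next (r = 0.70, permutation p = 0.00515, adjusted p = 0.0824; rho 0.74, permutation p = 0.00362; r = 0.49 without those 2 tumours). The macrophage mean ran from 8.30 to 10.40 in Hif1a+/+, from 7.26 to 8.36 in Hif1a+/- and from 7.04 to 8.81 in Hif1aKI/+ tumours. Of the 6 markers 5 had a lower mean in Hif1a+/- than in Hif1a+/+, where 53.8% of all genes were lower. None of the 6 markers lay below the boundary in every tumour, and Csf1r was between 12.45 and 13.89. Cd163, with a median of 2.17 and a highest value of 8.76, and Cd14, from 2.41 to 7.91, lay at background in some tumours. The macrophage mean therefore includes values at background. Fibroblast markers also moved down, 6 of 6 lower in Hif1a+/- against the same 53.8% of all genes. The fibroblast mean was 10.25 to 11.57 in Hif1a+/+, 8.72 to 10.16 in Hif1a+/- and 9.72 to 10.54 in Hif1aKI/+. In these bulk samples, fewer cells of a type and less RNA per cell cannot be told apart. With the macrophage mean as a covariate the difference of Hif1a+/- from Hif1a+/+ turned to 0.18 for Pgk1, 0.13 for Pgam1 and 0.06 for Ldha, and it was -0.30 for Pkm, -0.41 for Slc2a3, -0.13 for Aldoa and -0.04 for Hk2. None of these passed in limma. This covariate was chosen after seeing the data and overlaps only slightly between the 2 genotypes, so the fit can hardly separate it from genotype. Markers of thymic epithelium went the other way from the macrophage and fibroblast markers. In both Hif1a+/- and Hif1aKI/+, 5 of 5 were higher than in Hif1a+/+ at an unadjusted limma p under 0.05. None passed the adjusted threshold. At that unadjusted p 4.3% and 2.72% of all genes were higher. The mean of these epithelial markers ran from 3.76 to 8.51 in Hif1a+/+, from 6.81 to 9.19 in Hif1a+/- and from 7.54 to 9.19 in Hif1aKI/+ tumours. Adipocyte markers were lower in 5 of 5 in both comparisons, where 53.8% and 52.3% of all genes were lower. The adipocyte mean was 4.64 to 9.34, 4.61 to 5.74 and 4.77 to 6.26 in the same order of genotypes. The part of these last 2 cell types in the differences of the glycolytic genes was not tested. Of the 3 skeletal muscle markers measured, Tnnt3 and Actn3 lay below the boundary in all tumours. The third, Mylpf, lay above it in all tumours, between 6.016 and 8.205.

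**Figure D5:**
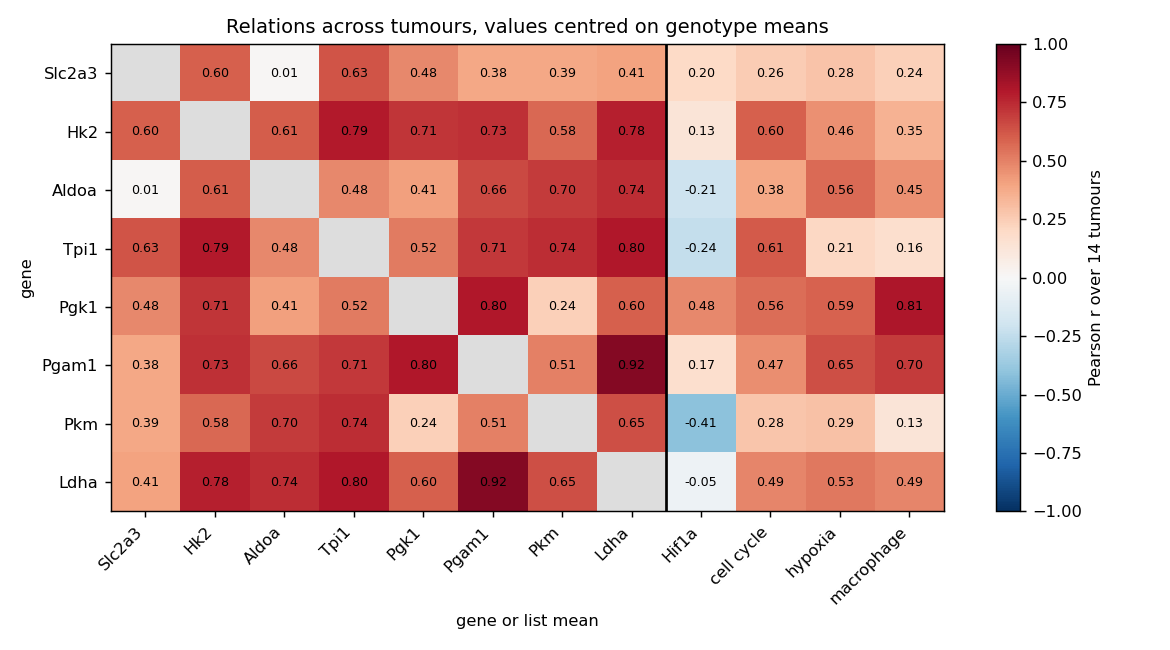
Pearson correlation over 14 tumours (values centred on genotype means) between the 8 genes above background, left of the line, and of each with Hif1a and the means of the cell cycle, non-glycolytic hypoxia and macrophage lists, right of it. Pgam1 with Ldha is the highest at 0.92 and Pgk1 with the macrophage mean is 0.81.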

How the data were processed

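Total RNA (100 ng) of 14 tumours was amplified and hybridised to 1 array each, per the labels. The authors deposited log2 probe set values, and the submitters' processing notes name GCRMA and Partek without versions; the sources used here give neither a genome build nor batches. Precision is limited by having 14 arrays.

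Of 18264 probe sets 16602 named 1 gene, 603 several and 1059 none; the probe set of highest mean stood for a gene (10254 genes), with no filter on level. The low-mode boundary of 4.41 is the minimum of the density of all values. All 14 arrays entered one linear model of genotype in limma 3.58.1 (R 4.3.3), with 2-sided tests, Benjamini-Hochberg adjustment over all genes and a threshold of 0.05. Relations used 100000 2-sided permutations each, adjusted over 28 pairs and 32 relations. The centred values of all 14 tumours were shuffled without allowing for the genotype means removed. Aldoc, at background, was left out of the relations after its values were seen. The fit and the search for similar profiles were tested on simulated data. Named genes are the members, up to 4 further genes of the pathway list per comparison by unadjusted p (and any under 0.05), Hif1a, and the genes of nearest profile; Slc2a1 and Pdk1 were added after their values were seen. Members and lists were chosen with earlier results of these data known. Sequences are from RefSeq.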

Additional observations from a re-analysis of the deposited data

Results flagged for a closer look

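Among 27 groups of tumours (9 genes in 3 genotypes) 2 held a tumour set apart from its group by a gap that is large for the group's range, where chance gives about 1 in 20. Pgk1 was 14.23 in Hif1a+/+ tumour 2, above the next Hif1a+/+ value of 13.93, with the gap 0.791 of the range. Ldha was 13.81 in Hif1a+/+ tumour 5, below the next value of 14.33, with the gap 0.80 of the range. Hif1a+/+ tumour 2 also had the highest macrophage marker mean of all tumours, at 10.40, and the part of that in the Pgk1 value was not tested.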

How the results depend on the processing

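No gene of the list passed in any of the comparisons under any alternative, the smallest limma adjusted p being 0.378 (Pkm, Hif1a+/- against Hif1a+/+, without 1 tumour). Of the differences recomputed, 704 kept their sign and 49 changed it, 32 of these between Hif1aKI/+ and Hif1a+/+. Many of the 704 could not change. Leaving out a tumour of the third genotype, filtering low genes or changing only the variance estimate leaves a difference as it was. The covariates for Gapdh 3' minus 5' signal, macrophages and fibroblasts were chosen after seeing the data, of which the fibroblast mean does not overlap between Hif1a+/+ and Hif1a+/- and the macrophage mean overlaps slightly. The cause of the changes was not tested.

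The number of genes called between Hif1a+/- and Hif1a+/+ was 2 as reported, with array weights and with probe sets averaged per gene, 1 with trend and robust moderation, and 0 without low genes, with quantile normalization, with centred arrays, with only the compared groups, with probe sets tested singly and with each covariate (Y-linked, cell cycle, Gapdh, macrophage, fibroblast). Without 1 tumour it was 0 to 1, and it was 0 to 2 between Hif1aKI/+ and Hif1a+/+, 0 to 1 between Hif1a+/- and Hif1aKI/+ and 0 to 1 in the F test. With the fibroblast covariate 1 gene was called between Hif1a+/- and Hif1aKI/+. With the replicate block the first count was 0, while same-numbered tumours did not resemble each other (residual correlations of -0.109 to 0.141), so the numbers do not pair them. The block turned Hk2 (0.029), Tpi1 (0.015) and Ldha (0.0071) in Hif1aKI/+ minus Hif1a+/+.

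In Hif1a+/- minus Hif1a+/+, Aldoc, at background, went from 0.019 to -0.028 with centred arrays, -0.19 with the Y-linked, -0.22 with the cell cycle, -0.20 with the Gapdh, -0.69 with the macrophage and -0.55 with the fibroblast covariate. The macrophage covariate turned Pgk1 (0.18), Pgam1 (0.13) and Ldha (0.056), and the fibroblast one Hk2 (0.19) and Pgk1 (0.038). In Hif1aKI/+ minus Hif1a+/+, Hk2 was 0.092 with array weights, and the cell cycle covariate gave 0.076 for Hk2, 0.023 for Tpi1 and 0.0016 for Ldha. The macrophage covariate gave 0.063 for Slc2a3, 0.78 for Hk2, 0.15 for Aldoa, 0.10 for Tpi1, 0.14 for Pgk1, 0.23 for Pgam1 and 0.15 for Ldha there. The fibroblast covariate gave 0.032 for Slc2a3, 0.64 for Hk2, 0.081 for Tpi1, 0.0034 for Pgam1 and 0.041 for Ldha. Without 1 tumour that comparison ran from -0.60 to 0.38 for Hk2, -0.14 to 0.047 for Ldha, -0.25 to 0.013 for Pgam1, -0.47 to 0.13 for Slc2a3 and -0.25 to 0.11 for Tpi1. Pgk1 in Hif1a+/- minus Hif1aKI/+ was 0.053 with the cell cycle, 0.040 with the macrophage and 0.049 with the fibroblast covariate, and -0.091 to 0.053 without 1 tumour.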

Other observations

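The genes whose profile across the 14 tumours was most like the mean profile of the 8 genes above background (values centred on genotype means, each gene scaled by its SD, over the 7323 other genes above the low-mode boundary) were G3bp1, a stress granule RNA-binding protein (r = 0.909), the DNA repair enzyme gene Tdp1 (r = 0.896), Wdr77 (r = 0.889) and Bnip3, a mitophagy gene induced by HIF-1 (r = 0.888). Dimt1 and Nsun2, which methylate RNA, had r = 0.886 and 0.863, the folate enzyme gene Mthfd1 0.882, Pitrm1 0.874, Btf3 0.868 and Ruvbl2 0.863. Lowest were Hp1bp3, a heterochromatin protein gene (r = -0.941), Ik (-0.918), Gosr2 (-0.905), Ap5m1 (-0.863) and Nudt13 (-0.854). Bnip3 ran from 9.36 in Hif1a+/- tumour 5 to 12.15 in Hif1aKI/+ tumour 3. Hif1a+/- tumour 5 was also the lowest for 6 of the 8 glycolytic genes, and Hif1aKI/+ tumour 3 was the highest for 2 of them and among the highest 3 for 7. The r of Bnip3 without Hif1a+/- tumour 5 was 0.877. These genes were picked for their likeness, so r is a description and has no test.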
